A study of Danio rerio with 4 samples.

Results

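The change of the Bad morphant effect between 24 and 12 hours post fertilization (hpf) was measured in zebrafish embryos on all 4 arrays of the series. Each array carried RNA of morphant embryos in Cy5 and RNA of wild-type embryos of the same age in Cy3, and 2 arrays were made at 24 hpf and 2 at 12 hpf. Morphants had received 2 to 3 nl of an antisense morpholino named for Bad at the 1-cell stage, each RNA came from a pool of 200 whole embryos, and no control morpholino and no dye swap are named in the labels. For each probe the log2 ratio of morphant over wild type was taken on every array, and the mean of the 24 hpf arrays minus the mean of the 12 hpf arrays is called the difference below. A dye effect that is common to all arrays cancels in it.

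Of 43603 noncontrol probes 28320 were bright enough to be tested, among them 14499 with a gene symbol, for 10206 genes, each represented by its brightest probe. The 4 arrays lay on 1 slide, with both 24 hpf arrays in its last positions and both 12 hpf arrays in its first, so position and age cannot be told apart. Median Cy5 signals were 131 and 136 intensity units at 24 hpf, against 92 and 88.5 units at 12 hpf. Across probes the ratios of the 2 arrays at 24 hpf had a Pearson correlation of 0.70 and those of the 2 arrays at 12 hpf 0.73, whereas pairs of arrays from different ages lay between 0.31 and 0.36, and probes are not independent replicates. In the wild-type channel 11 of 12 markers of the later age were higher on both 24 hpf arrays than on both 12 hpf arrays, and 13 of 14 markers of the earlier age were lower. Replicates are pools, and p-values cover no more than the spread of the 4 arrays, whose number limits the precision. The exceptions among the markers were the crystallin gene crygn2 (−0.02 on the log2 scale) and the neural crest gene foxd3 (0.85).

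Bad is a BH3-only protein of the Bcl-2 family that promotes apoptosis at the mitochondrion and is held inactive by phosphorylation downstream of survival kinases. At 12 hpf the zebrafish embryo forms its first somites from the unsegmented mesoderm of the tailbud, while at 24 hpf the body axis is laid down, the heart beats, blood circulates or is about to, and lens, muscle and pigment cells differentiate. A comparison of the morphant effect at these ages asks which of its components belong to one age, which to both, and which change sign. The one probe for a bad gene, badb, had ratios of −0.42 and −0.20 at 24 hpf, against −0.30 and −0.20 at 12 hpf. Its difference was −0.06 ± 0.10 (SE; limma adjusted p = 0.767), and the labels do not say which bad gene was targeted or whether the morpholino blocks splicing or translation.

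Genes of unlike roles were among the largest differences, and so were the linker histone genes h1-10 (−1.77) and histh1l1 (−1.38). In morphants relative to wild type, s100a10a, which encodes an annexin partner, and phlda3, a p53 target gene, were higher at 24 hpf than at 12 hpf, and the kinase gene pim2, the vitamin D-degrading cyp24a1, the ventral homeobox gene ved and the mesodermal T-box gene tbx16 were lower. A gene was called when its difference had a limma adjusted p under 0.05 and the same sign in all 4 pairs of a 24 hpf and a 12 hpf array. By this rule 408 genes were higher at 24 hpf than at 12 hpf (4% of those tested) and 697 were lower (6.83%), together 1105 (10.8%). The median absolute difference of the called genes was 0.47, and a difference of at least 2-fold was reached by 15 of the higher and 37 of the lower genes. Over probes 881 were higher and 1514 lower, 2395 in all (8.46%), and 7162 had an unadjusted p under 0.05.

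The number of calls depended on how the ratio was made. With the scanner software's processed signals limma called 0 probes (5960 at unadjusted p under 0.05), with the deposited ratios 0 (6050) and with median centring instead of loess 0 (865). The signs of the 2395 differences were the same for 99.1% of probes with the processed signals and for 99.9% with median centring, which is no independent check, since the probes were chosen for like signs on the same 4 arrays. Leaving out one array left 1192 calls (24 hpf replicate 1), 1387 (24 hpf replicate 2), 1267 (12 hpf replicate 1) or 2186 (12 hpf replicate 2).

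The called genes were sorted by what the limma fit found at each age on its own. A gene reversed if its ratio differed from 0 at both ages with opposite signs, appeared if it did so at 24 hpf only, and faded if it did so at 12 hpf only. By this sorting 111 genes reversed (1.09% of those tested), 485 appeared (4.75%) and 410 faded (4.02%). A further 62 kept their direction, 20 with a larger and 42 with a smaller effect at 24 hpf, and 37 passed at neither age. The classes hold genes bright enough at 1 age only. By the filter neither channel of these was well above background on at least 1 array of the other age. A ratio set against 0 carries any dye effect, so the class of a gene is less firm than its difference. Of the 438 genes that appeared and were measured at both ages, 308 had mean ratios of opposite sign at the 2 ages without passing at 12 hpf. The same held for many faded genes measured at both ages, without passing at 24 hpf. Of these, 166 were below 0 at 24 hpf and above 0 at 12 hpf, and 112 the other way round. A further 69 were above 0 and 48 below 0 at both ages.

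**Figure D1:**
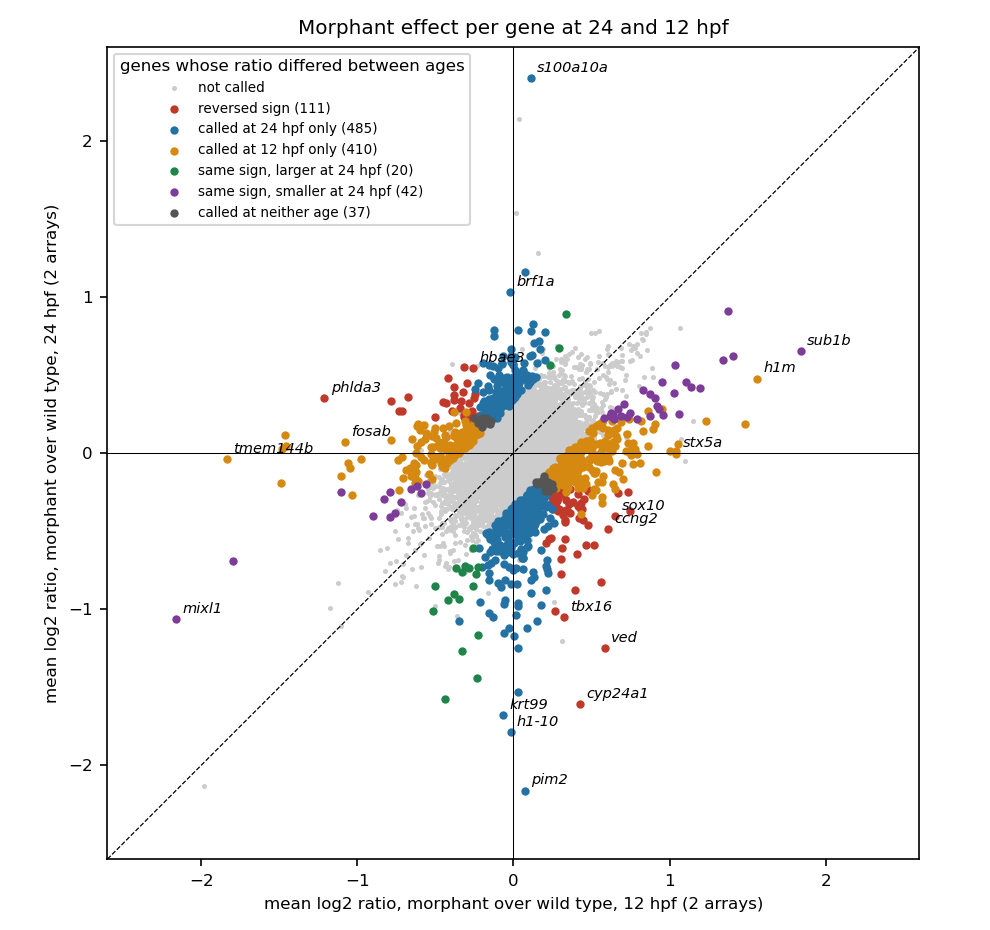
Mean log2 ratio of morphant over wild type at 24 hpf (vertical axis) against 12 hpf (horizontal axis) for 10206 genes, each point 1 gene and each mean over 2 arrays. Coloured points are the 1105 called genes by class, the dashed line marks equal ratios, and the reversed genes lie in the upper left and lower right of the plot.

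Reversal was mostly downward, with 79 genes below wild type at 24 hpf and above it at 12 hpf, and 32 the other way round. Calls of all classes were also more often lower (697 genes) than higher (408 genes). Among the 79 were regulators of early mesoderm and of the embryo's axes. The ventral repressor gene ved had ratios of −1.18 and −1.32 at 24 hpf, against 0.60 and 0.57 at 12 hpf, a difference of −1.83 ± 0.09 (SE; limma adjusted p = 4.8e-05). Both probes of ved were called. The T-box gene tbx16, which posterior mesoderm needs to leave the tailbud, had −0.84 and −1.26 at 24 hpf, against 0.33 and 0.32 at 12 hpf (difference −1.37 ± 0.13, adjusted p = 9.51e-04). For both genes the 24 hpf arrays lay below all 12 hpf arrays, as the rule for a call required, and on the other side of 0.

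The caudal homeobox gene cdx4 and the retinoic acid-degrading cyp26a1, which are used in the same tailbud region, went the same way. The cdx4 ratio was −0.76 and −0.60 at 24 hpf, against 0.21 and 0.41 at 12 hpf (difference −0.98 ± 0.11, limma adjusted p = 0.00135). For cyp26a1 the values were −0.96 and −1.07 at 24 hpf, against 0.41 and 0.12 at 12 hpf (difference −1.28 ± 0.11, adjusted p = 6.52e-04). The vitamin D 24-hydroxylase gene cyp24a1 had the most negative difference of a reversed gene, with −1.72 and −1.50 at 24 hpf, against 0.47 and 0.39 at 12 hpf (difference −2.04 ± 0.10, 4.1-fold, adjusted p = 4.8e-05). All 3 were below wild type on both 24 hpf arrays and above it on both 12 hpf arrays.

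The linker histone gene histh1l1, whose product binds the DNA between nucleosomes, also reversed downward. Its ratio was −0.79 and −0.85 at 24 hpf, against 0.54 and 0.58 at 12 hpf (difference −1.38 ± 0.09, limma adjusted p = 1.4e-04). The neural crest regulator gene sox10 had −0.48 and −0.33 at 24 hpf, against 0.80 and 0.51 at 12 hpf (difference −1.06 ± 0.12, adjusted p = 0.00157). Smaller reversals in this direction were those of gata2a, which specifies blood and epidermal precursors (−0.78), the hatching enzyme gene he1.1 (−0.76), the keratin gene krt92 (−0.69), the motor neuron gene isl2a (−0.66), the oxygen-sensing hydroxylase gene hif1al (−0.56) and the tight junction gene cldn7b (−0.53). Only 1 of 4 hif1al probes was called, and its call was lost when the gene's probes were averaged.

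Among the 32 genes that were above wild type at 24 hpf and below it at 12 hpf were p53 targets. The phlda3 gene, whose product restrains Akt in mammals, had ratios of 0.55 and 0.15 at 24 hpf, against −1.20 and −1.23 at 12 hpf (difference 1.56 ± 0.13, limma adjusted p = 4.73e-04). The pro-apoptotic BH3-only gene bbc3 (Puma) had 0.42 and 0.25 at 24 hpf, against −0.63 and −0.94 at 12 hpf (difference 1.12 ± 0.12, adjusted p = 0.0013), with 1 of 2 probes called. The cyclin G1 gene ccng1 had 0.74 and 0.23 at 24 hpf, against −0.32 and −0.52 at 12 hpf (difference 0.90 ± 0.15, adjusted p = 0.00974). In all 3 the decrease at 12 hpf was present on both arrays, and the increase at 24 hpf was uneven between its 2 arrays in phlda3 and ccng1.

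Other genes that reversed upward were rspo1, which encodes a secreted enhancer of Wnt signalling (difference 1.03 ± 0.11), the phosphoinositide 3-kinase subunit gene pik3r3a (1.00 ± 0.10), the GTP-binding protein gene gtpbp1l (0.99 ± 0.10), the embryonic alpha globin gene hbae3 (0.80 ± 0.10) and the mitochondrial chaperone gene dnaja3a (0.72 ± 0.09). Their limma adjusted p lay between 9.78e-04 and 0.0027 for rspo1, pik3r3a, gtpbp1l and hbae3, and dnaja3a had 0.00279. The apoptosis-related genes that reversed were not all of 1 direction. The cyclin G2 gene ccng2, listed with the p53 targets, had −0.69 and −0.29 at 24 hpf, against 0.47 and 0.74 at 12 hpf (difference −1.09 ± 0.14). The diabloa gene, whose product releases caspases from their inhibitors, had −0.66 and −0.63 at 24 hpf, against 0.48 and 0.33 at 12 hpf (difference −1.05 ± 0.09).

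**Figure D2:**
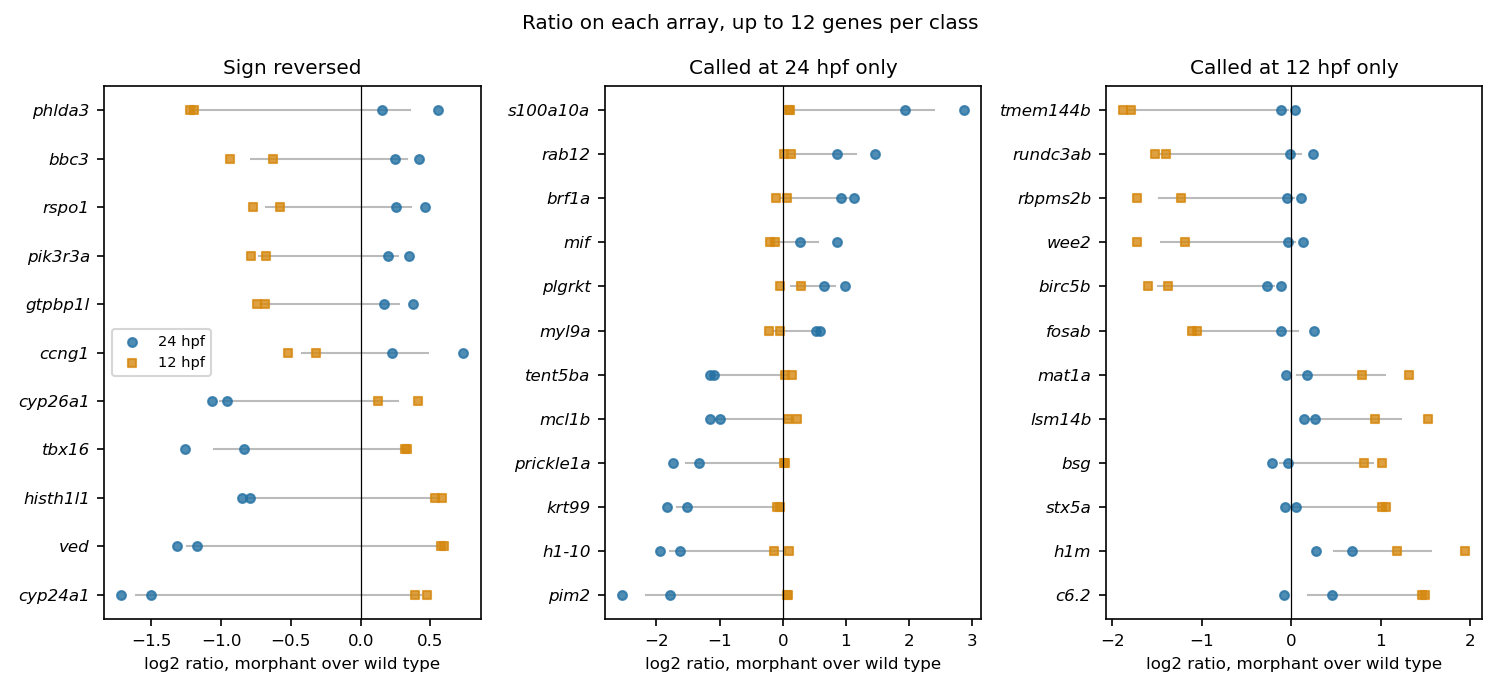
Log2 ratio of morphant over wild type on each array for the named genes among the 6 most positive and 6 most negative differences in each class, with circles for the 2 arrays at 24 hpf and squares for the 2 arrays at 12 hpf. Grey lines join the means, and in none of these genes do the circles and squares overlap, as the rule for a call required.

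Effects that appeared at 24 hpf were more often decreases (306 genes) than increases (179 genes). All called genes had the same lean, with 697 lower and 408 higher. The pim2 gene encodes a serine/threonine kinase of the Pim family, which phosphorylates Bad in mammals. Its ratio was −1.78 and −2.54 at 24 hpf, against 0.07 and 0.08 at 12 hpf (difference −2.24 ± 0.20, 4.71-fold, limma adjusted p = 6.47e-04). The linker histone gene h1-10 had −1.95 and −1.62 at 24 hpf, against −0.13 and 0.10 at 12 hpf (difference −1.77 ± 0.13). For both genes the 12 hpf arrays lay near 0 and only the 24 hpf arrays stood apart.

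The keratin gene krt99 had −1.84 and −1.52 at 24 hpf, against −0.09 and −0.04 at 12 hpf (difference −1.62 ± 0.11, limma adjusted p = 2.34e-04). The anti-apoptotic Bcl-2 family gene mcl1b had −1.0 and −1.15 at 24 hpf, against 0.08 and 0.22 at 12 hpf (difference −1.22 ± 0.10, adjusted p = 4.73e-04). The planar cell polarity gene prickle1a had a difference of −1.56 ± 0.13, with 1 of 2 probes called, and its paralogue prickle1b −0.44 ± 0.09. The prickle1b call was lost without 12 hpf replicate 1 and without either 24 hpf replicate. Further decreases of 24 hpf only were tent5ba, of a poly(A) polymerase family (−1.21), the zinc finger genes gfi1aa (−1.09) and klf11a (−1.08), the insulin receptor substrate gene irs2a (−1.09), the glycolytic gene gpia (−1.01), fgf17 (−0.99) and the myogenic factor gene myf5 (−0.90). By the definition of the class none of these passed against 0 at 12 hpf.

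Increases that appeared at 24 hpf were fewer and, apart from s100a10a, smaller. The s100a10a ratio was 1.93 and 2.87 at 24 hpf, against 0.12 and 0.11 at 12 hpf (difference 2.29 ± 0.23, 4.90-fold, limma adjusted p = 0.00117), and its call was lost with robust moderation of the variances. The GTPase gene rab12 had 0.86 and 1.46 at 24 hpf, against 0.13 and 0.02 at 12 hpf (difference 1.09 ± 0.17), and the RNA polymerase III factor gene brf1a 1.13 and 0.93 at 24 hpf, against 0.06 and −0.11 at 12 hpf (difference 1.05 ± 0.11). The cytokine gene mif (0.72), the plasminogen receptor gene plgrkt (0.70) and the myosin light chain gene myl9a (0.69) followed. Without 24 hpf replicate 1 the difference of mif was 0.43 (limma adjusted p = 0.0729) and that of plgrkt 0.53 (adjusted p = 0.0673), and without 12 hpf replicate 1 that of mif was 0.68 (adjusted p = 0.0733).

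Effects that faded were present at 12 hpf and not called at 24 hpf. The strongest were decreases at 12 hpf, which give a positive difference. The transmembrane protein gene tmem144b had ratios of −0.12 and 0.04 at 24 hpf, against −1.79 and −1.88 at 12 hpf (difference 1.79 ± 0.10, limma adjusted p = 6.28e-05), with all 3 probes called. The immediate-early gene fosab had 0.26 and −0.11 at 24 hpf, against −1.11 and −1.05 at 12 hpf (difference 1.15 ± 0.12), with 5 of 5 probes called. The kinase gene wee2, which holds Cdk1 inactive, had 0.13 and −0.04 at 24 hpf, against −1.19 and −1.72 at 12 hpf (difference 1.5 ± 0.16).

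The survivin paralogue birc5b (1.3), the RUN-domain gene rundc3ab (1.58), the RNA-binding rbpms2b (1.51), the glycolytic gene eno1a (1.00), the lipoprotein receptor gene vldlr (0.94), the transcription factor gene foxo3b (0.87) and the amino acid transporter gene slc3a2b (0.79) faded in the same way. In tmem144b and wee2 the levels in both channels were also much lower at 24 hpf. The normalised log2 level of tmem144b was 6.74 in morphants and 6.77 in wild type at 24 hpf, against 9.30 in morphants and 11.13 in wild type at 12 hpf, and that of wee2 was 6.90 and 6.85 at 24 hpf, against 10.57 and 12.03 at 12 hpf in the same order. For fosab it was 11.41 in morphants and 11.33 in wild type at 24 hpf, against 10.76 in morphants and 11.84 in wild type at 12 hpf. The 24 hpf levels of tmem144b and wee2 lay near the floor. The muscle gene mylpfa, not bright enough at 12 hpf, had wild-type levels of 6.35 and 6.47 at that age. Whether the low signal brought the 24 hpf ratios of tmem144b and wee2 close to 0 was not tested.

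Increases that faded gave a negative difference, and several were of mRNAs that oocytes store for the embryo. Stored mRNAs were not all of 1 direction, since wee2 above is listed with them. The maternal linker histone gene h1m had ratios of 0.28 and 0.67 at 24 hpf, against 1.18 and 1.94 at 12 hpf (difference −1.08 ± 0.22, limma adjusted p = 0.0175), and without 24 hpf replicate 1 it was −0.89 (adjusted p = 0.0544). The gene lsm14b, for an RNA-binding protein of P-bodies, had 0.27 and 0.14 at 24 hpf, against 0.93 and 1.53 at 12 hpf (difference −1.03 ± 0.16, adjusted p = 0.00803). The complement gene c6.2 had −0.08 and 0.46 at 24 hpf, against 1.46 and 1.5 at 12 hpf (difference −1.29 ± 0.15), and the Golgi SNARE gene stx5a −0.07 and 0.06 at 24 hpf, against 1.07 and 1.02 at 12 hpf (difference −1.05 ± 0.09). The basigin gene bsg (−1.04) and the methionine adenosyltransferase gene mat1a (−0.99) completed this group.

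**Figure D3:**
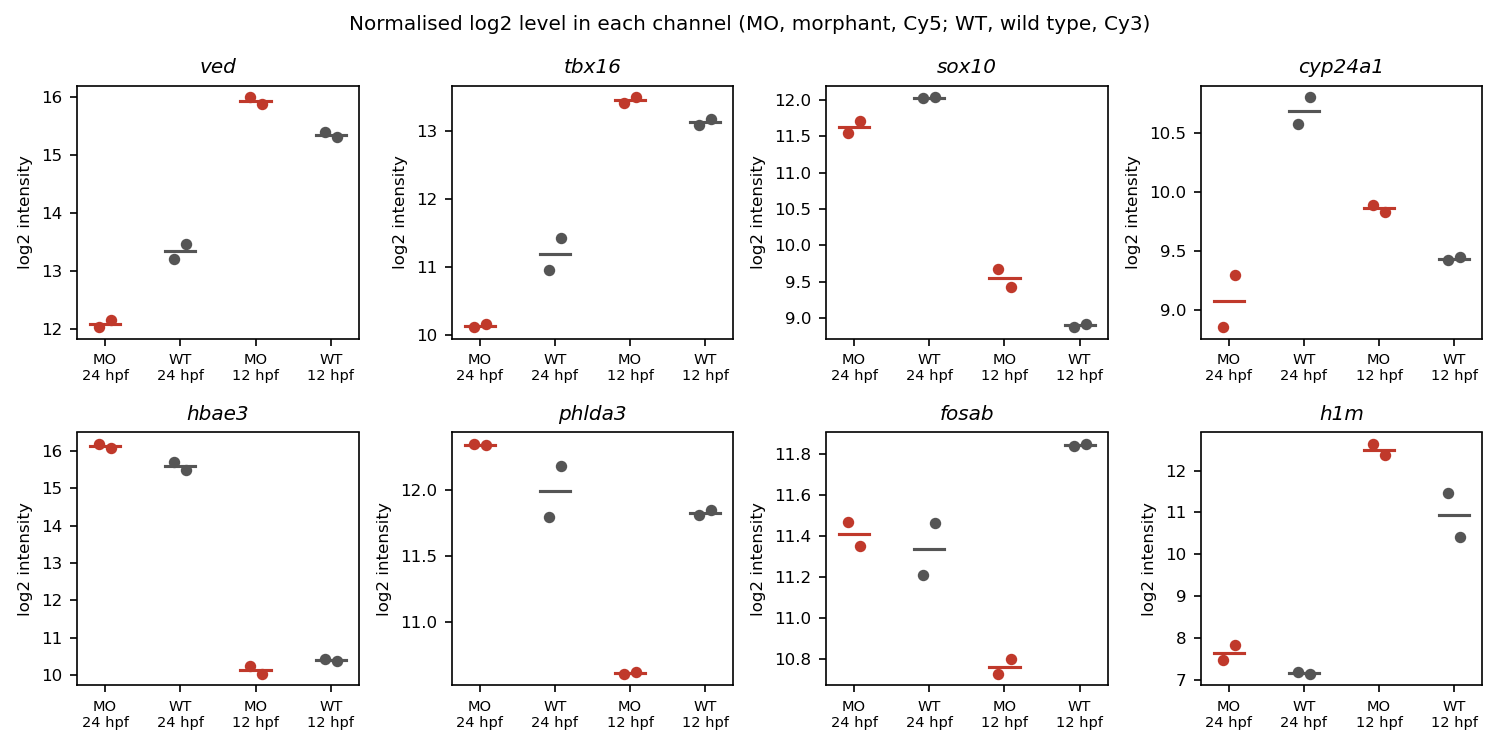
Normalised log2 intensity of 8 genes in the morphant (MO, Cy5) and wild-type (WT, Cy3) channel at 24 and 12 hpf, each point 1 array and each bar the mean of 2. The level of ved in morphants was below wild type at 24 hpf and above it at 12 hpf while both channels were lower at 24 hpf, whereas hbae3 was higher at 24 hpf in both.

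In the reversed and the appeared genes the median level moved further between the ages in the morphant channel, and in the faded genes further in the wild-type channel. Of the 79 that reversed downward, the morphant level was higher at 24 hpf than at 12 hpf in 26 (median change −0.58) and the wild-type level in 42 (median change 0.13). Of the 32 that reversed upward, the morphant level was higher at 24 hpf in 21 (median 0.50) and the wild-type level in 13 (median −0.15). For 296 genes whose decrease appeared and that were measured at both ages, the median change was −0.48 in morphants and 0.04 in wild type. For 142 whose increase appeared it was 0.50 in morphants and −0.01 in wild type. Among 235 genes whose increase faded and that were measured at both ages, the median change was −0.08 in morphants and 0.37 in wild type, and among 160 whose decrease faded it was −0.07 in morphants and −0.53 in wild type. These levels were normalised between arrays on the assumption of like distributions, and no test was made on them.

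Some genes kept their direction but changed in size. The mesendodermal homeobox gene mixl1 was below wild type at both ages, with −1.32 and −0.81 at 24 hpf, against −2.02 and −2.30 at 12 hpf (difference 1.09 ± 0.16, limma adjusted p = 0.00584). The coactivator gene sub1b was above wild type at both, with 0.70 and 0.60 at 24 hpf, against 1.88 and 1.80 at 12 hpf (difference −1.19 ± 0.09, adjusted p = 3.38e-04). The RNA-binding fus (−0.71), the planar cell polarity receptor gene ptk7a (−0.72), the urate-pathway gene uraha (−0.65) and the claudin gene cldng (−0.63) also had smaller increases at 24 hpf.

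Decreases that were larger at 24 hpf were those of the keratin gene krt97 (difference −1.21), the mTORC1 inhibitor gene ddit4 (−1.14), the eIF2α phosphatase subunit gene ppp1r15a (−0.94), the eye field gene rx3 (−0.52) and the collagen prolyl hydroxylase gene p4ha2 (−0.49). The ddit4 ratio was −1.33 and −1.83 at 24 hpf, against −0.44 and −0.43 at 12 hpf (limma adjusted p = 0.00288). The p4ha2 call, with 1 of 3 probes, was lost without 24 hpf replicate 1, without either 12 hpf replicate and when the gene's probes were averaged.

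By function, genes of somite segmentation and presomitic mesoderm had the largest share of downward calls among the lists with 10 or more measured members. Of 37 measured members 19 were lower at 24 hpf than at 12 hpf, 1 was higher and 17 were not called, with a median difference of −0.39, beside −0.00 over all genes. The median ratio of the list was −0.23 at 24 hpf and 0.04 at 12 hpf. Of the 20 called members 5 reversed, 12 appeared and 3 faded, and fgf17, cdx4 and tbx16 above are examples. The number of members called lower lay between 16 and 18 when any 1 array was left out, and the list's median stayed negative in all 16 settings tried, from −0.62 to −0.37. In whole embryos fewer cells of a type and less RNA per cell cannot be told apart, here or in the lists that follow. Over all genes 4% were called higher and 6.83% lower, and the counts of each list are to be read beside these shares. The lists were chosen with earlier results of these data known, so their shares and ranks describe these arrays and are no independent support.

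Other lists of early embryonic tissues leaned to lower as well. Keratins and epidermal genes had 11 of 29 lower and 0 higher (median −0.35), with krt99, krt97 and krt92 leading, and 7 lower without 24 hpf replicate 2. Hatching gland genes had 5 of 13 lower and 1 higher (median −0.31). The exception was gdf3 (0.86), which encodes a Nodal partner, and the hatching enzyme genes he1.1 (−0.76) and he1.2 (−0.69) were lower, while 2 members were called lower without 24 hpf replicate 2 and 3 without any other single array. Genes of the mesendoderm, Nodal signalling and the dorsoventral axis had 11 of 40 lower and 1 higher (median −0.16), and mixl1 was the 1 higher. The number called lower in this list was 5 without 24 hpf replicate 1 and 7 without either 12 hpf replicate.

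Regulators of organ precursors showed the same lean. Blood and vessel regulators had 5 of 19 lower and 0 higher (median −0.22), of which hif1al belongs to oxygen sensing rather than to that tissue. Myogenic regulators had 5 of 18 lower and 0 higher (median −0.20), with myf5 (−0.90), the muscle enhancer factor gene mef2ca (−0.84) and myod1 (−0.49) leading. Eye field genes had 7 of 28 lower and 0 higher (median −0.13), with six3b (−0.53), rx3 and vax1 (−0.49) in front, and their median was 0.02 with median centring. Neural progenitor and brain patterning genes had 12 of 72 lower and 1 higher (median −0.13), led by the hindbrain gene egr2b (−0.73), the midbrain-hindbrain boundary gene her5 (−0.73) and irx7 (−0.65). Without 24 hpf replicate 2 or 12 hpf replicate 1 the lower calls were 3 each among myogenic regulators and 3 and 4 among eye field genes, and those of blood and vessel regulators were 3 without any single array other than 12 hpf replicate 1. When single arrays were left out, the calls in the brain patterning list were 4 without 12 hpf replicate 1, 7 without 12 hpf replicate 2, 5 without 24 hpf replicate 1 and 4 without 24 hpf replicate 2.

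Further lists in which calls were mostly downward were Hox genes (8 of 46 lower, 2 higher, median −0.20), claudins and tight junctions (8 of 37 lower, 2 higher, median −0.19), planar cell polarity (5 of 30 lower, 0 higher, median −0.06), early heart (4 of 19 lower, 1 higher, median −0.07) and notochord (4 of 21 lower, 0 higher, median −0.14). The Hox genes were not of 1 direction, since hoxc3a (−0.59) and hoxd12a (−0.54) were lower and hoxc4a (0.50) higher. The notochord calls were 0 without 24 hpf replicate 1 and 1 without 12 hpf replicate 2, and those of noto (−0.42, limma adjusted p = 0.082, and −0.44, adjusted p = 0.0503) and tbxta (−0.41, adjusted p = 0.117, and −0.36, adjusted p = 0.0948) were lost in the same settings. Without 1 array at a time the Hox calls lay between 2 and 5, the claudin calls between 2 and 6, the planar cell polarity calls between 2 and 3 and the early heart calls between 2 and 3, each lowest without 24 hpf replicate 1.

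Stored maternal mRNAs and genes of the yolk syncytial layer were lower mainly as increases of 12 hpf that were smaller or not called at 24 hpf. Of 35 measured oocyte and maternal genes 13 were lower and 2 higher (median −0.27), with 7 of the called members faded and 5 of unchanged direction, and the median ratio was 0.05 at 24 hpf and 0.21 at 12 hpf. Of the 2 higher members, wee2 (1.5) had the list's largest difference and was below wild type at 12 hpf. The other was bright enough at 24 hpf only. Calls in this list numbered 7 lower without 12 hpf replicate 1 and 8 without 24 hpf replicate 1. Of 34 genes of the yolk syncytial layer, lipid transport and liver 9 were lower and 2 higher (median −0.24), with apoa4b.1 (−0.62) and the plasma protein gene ambp (−0.61) faded. The calls of this list were 4 lower without 24 hpf replicate 1 and 5 without 12 hpf replicate 1, and ambp lost its call in both settings (−0.46 and −0.43, limma adjusted p = 0.117 and 0.112). Germ cell genes had 2 of 14 lower, ca15b (−0.51) and the Tudor-domain gene tdrd1 (−0.49), and 0 higher.

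Calls in lists of tissues that differentiate by 24 hpf did not share a direction. The median difference was 0.22 for lens, 0.21 for globin, 0.15 for sarcomere, 0.07 for neural crest and pigment and 0.03 for neuronal genes. For lens, globin and sarcomere genes it stayed positive in all 16 settings. It did so in 15 for neural crest and pigment and in 11 for neuronal genes. Lens crystallins and lens fibre genes had 7 of 27 higher and 0 lower, but 4 of the 7 were bright enough at 24 hpf only, so that 3 calls rest on ratios measured at both ages. The crygn2 ratio was 0.53 and 0.47 at 24 hpf, against −0.26 and −0.05 at 12 hpf (difference 0.65 ± 0.10, limma adjusted p = 0.00735). Its wild-type level did not rise between the ages (−0.02), whereas those of the crystallin genes crybb1 (2.95) and cryba2a (2.22) did. The cryba4 call (0.42) was lost without either 12 hpf replicate and without 24 hpf replicate 2. That of crygm2d18 (0.43) was lost without either 12 hpf replicate and without 24 hpf replicate 1. The number of lens genes called was 4 without either 12 hpf replicate and 5 without either 24 hpf replicate.

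Globins and heme synthesis genes had 6 of 28 higher, 4 of them measured at both ages and 2 bright enough at 24 hpf only, and 1 lower. The embryonic globin hbae3 had ratios of 0.49 and 0.60 at 24 hpf, against −0.17 and −0.35 at 12 hpf, and hbae1.1 had 0.51 and 0.56 at 24 hpf, against 0.00 and 0.02 at 12 hpf (difference 0.52 ± 0.09, limma adjusted p = 0.00973). The 1 lower member was the carbonic anhydrase gene ca2 (−0.77), with 1 of 2 probes called. The number of higher members was 2 without 24 hpf replicate 2 and 3 without 12 hpf replicate 1.

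Sarcomere genes had 5 of 54 higher, 2 of them measured at both ages and 3 bright enough at 24 hpf only, and 1 lower, but the number higher was 0 without 24 hpf replicate 2 and 3 without 24 hpf replicate 1 or 12 hpf replicate 1. Their named members pointed both ways, since tnnt3b (−0.61) was lower and actn3a (0.45) and tnnt3a (0.36) were higher, and the tnnt3a call was lost without any 1 of the 4 arrays. In the neural crest and pigment list the early regulators sox10 and snai2 (−0.60) were lower, while the melanosome transporter gene slc24a5 (0.68) was higher. Its list had 3 higher, 2 of them bright enough at 24 hpf only, and 5 lower of 23. Without 12 hpf replicate 1 or either 24 hpf replicate it had 1 higher and 2 lower. Neuronal differentiation genes had 3 of 50 higher and 5 lower (median 0.03), and 1 higher without 12 hpf replicate 1 or either 24 hpf replicate and 2 lower without 24 hpf replicate 1. Their shares were 6% higher and 10% lower, beside 4% and 6.83% over all genes. Sterol synthesis genes had 3 of 23 higher and 0 lower (median 0.17), among them aacs (0.51), and 1 higher without 24 hpf replicate 2.

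**Figure D4:**
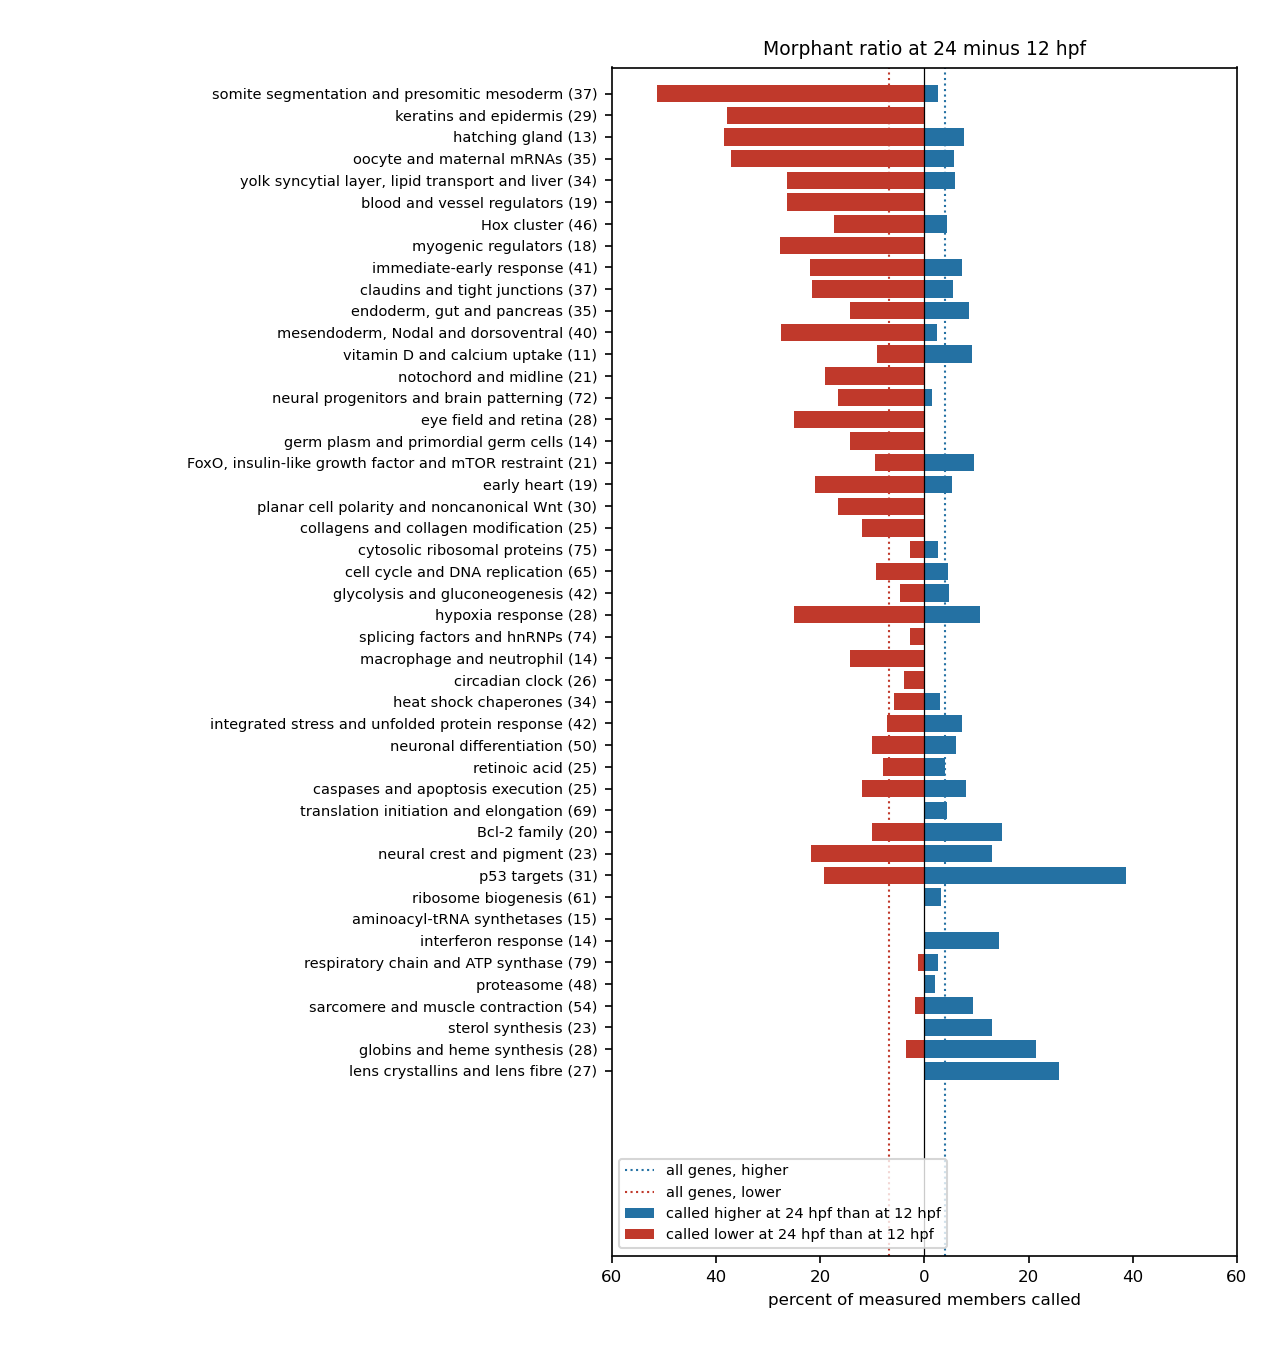
Percent of measured members called higher (right, blue) and lower (left, red) at 24 hpf than at 12 hpf for the gene lists with 10 or more measured members, ordered by median difference, with the number measured in brackets, counting members bright enough at 1 age only. Dotted lines give the shares over all 10206 genes, 4% higher and 6.83% lower. The somite list reaches 51.4% lower, and the p53 target list 38.7% higher and 19.4% lower. The lists were chosen with earlier results of these data known.

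Genes of the p53 response had the largest share of upward calls among the lists, 38.7%, beside 4% over all genes. Their share of downward calls, 19.4%, was also above the 6.83% over all genes. Of 31 measured p53 targets 12 were higher, 6 lower and 13 not called, and 6 of the called members reversed, 6 appeared and 6 faded. The list's median ratio was −0.04 at 24 hpf and −0.12 at 12 hpf, and its median difference was 0.09 and turned to −0.02 with median centring. The number called higher was between 9 and 11 without any 1 array, and the number called lower was 5 without 12 hpf replicate 2, 4 without 24 hpf replicate 1, 3 without 24 hpf replicate 2 and 2 without 12 hpf replicate 1. Besides phlda3, bbc3 and ccng1, foxo3b was higher. Its ratio was 0.20 and −0.03 at 24 hpf, against −0.68 and −0.89 at 12 hpf (difference 0.87 ± 0.11, limma adjusted p = 0.00335), with 1 of 2 probes called.

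The Bcl-2 family, to which Bad belongs, had 3 of 20 members higher and 2 lower, led by mcl1b and bbc3, and bnip3lb (−0.65) was the other lower member. The number called higher was 1 without 12 hpf replicate 2 or 24 hpf replicate 1. Caspases and genes of apoptosis execution had 2 of 25 higher and 3 lower, led by birc5b and diabloa, and 1 lower without any single array other than 24 hpf replicate 2. Their shares were 8% higher and 12% lower, beside 4% and 6.83% over all genes. The casp8 difference of 0.57 ± 0.15 (limma adjusted p = 0.0473) did not hold without 12 hpf replicate 2, where it was 0.37 (adjusted p = 0.148), nor without 24 hpf replicate 1, where it was 0.40 (adjusted p = 0.192).

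Stress and nutrient-response genes did not move as a block. Immediate-early genes had 9 of 41 lower and 3 higher (median −0.19), and fosab and klf11a pointed in opposite directions, with 4 lower without either 24 hpf replicate and 5 without 12 hpf replicate 2. Hypoxia response genes had 7 of 28 lower and 3 higher (median −0.04), and 1 higher without 24 hpf replicate 1. They included ddit4 and bnip3lb, and the glycolytic regulator gene pfkfb3 (0.76), which had ratios of −0.24 and −0.30 at 24 hpf, against −0.80 and −1.27 at 12 hpf. Heat shock genes had 1 of 34 higher, dnaja3a, and 2 lower, hsp90aa1.2 (−1.06) and hspb1 (−0.50), and hsp90aa1.2 had 1 of 2 probes called. The heat shock shares, 2.94% higher and 5.88% lower, were below the 4% and 6.83% over all genes. The integrated stress response list had 3 of 42 higher and 3 lower, and genes of FoxO, insulin-like growth factor and mTOR restraint 2 of 21 in each direction. In each direction the share was 7.14% for the first list and 9.52% for the second, beside the same 4% and 6.83%.

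Ribosome, splicing, respiratory chain, proteasome and translation genes had smaller shares of called members than all genes (10.8%). Cytosolic ribosomal protein genes had 2 of 75 higher (rps3 and rpl31) and 2 lower, and 0 in either direction without 12 hpf replicate 1 or 24 hpf replicate 1. Both rps3 and rpl31 lost their calls in these settings and without 24 hpf replicate 2. Their median ratio was 0.17 at 24 hpf and 0.21 at 12 hpf. Splicing factors had 2 of 74 lower and 0 higher. Counts of splicing, respiratory chain, proteasome, translation and ribosome biogenesis genes moved by at most 2 genes when a single array was left out. Respiratory chain genes had 2 of 79 higher and 1 lower (median 0.14), proteasome genes 1 of 48 higher (median 0.14), translation factors 3 of 69 higher, ribosome biogenesis genes 2 of 61 higher, and tRNA synthetases 0 of 15 in either direction. Glycolysis genes had 2 of 42 in each direction, with gpia and eno1a apart, and the lower calls were 1 without 24 hpf replicate 1, 6 without 24 hpf replicate 2, 3 without 12 hpf replicate 1 and 4 without 12 hpf replicate 2. Cell cycle genes had 3 of 65 higher and 6 lower, with 2 lower without 12 hpf replicate 1 or 24 hpf replicate 1, 3 without 24 hpf replicate 2 and 4 without 12 hpf replicate 2. Their shares were 4.62% higher and 9.23% lower, beside 4% and 6.83% over all genes. Clock genes had 1 of 26 lower, cry1b (−0.55).

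Some genes were bright enough at 1 age only. For them the difference sets a measured ratio against one for which neither channel was well above background on at least 1 array. At 24 hpf only 810 genes were measured, of which 39 were called higher and 10 lower, and at 12 hpf only 249, of which 7 were higher and 8 lower. Of the 24 hpf group the lens crystallin gene cryba1b had ratios of 0.71 and 0.87 at 24 hpf, the growth hormone-releasing hormone gene ghrh 0.94 and 0.56, and the lens membrane gene lim2.4 0.79 and 0.78. The pyruvate dehydrogenase gene pdha1b had −1.09 and −1.40, the matrix gene efemp2a −1.17 and −0.87, and the apolipoprotein gene apoea −0.88 and −0.74.

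Of the 12 hpf group the oocyte protein gene 42sp43 had ratios of 0.93 and 1.15 at 12 hpf, the germ-line cyclin gene ccna1 0.66 and 1.34, and the kinase gene camk1ga 0.82 and 0.81. The ratios of fhdc3 (−0.49 and −0.81), the melanocortin receptor gene mc5rb (−0.68 and −0.44) and fam120c (−0.67 and −0.37) were below 0 at 12 hpf. Whether these ratios changed by 24 hpf was not measured, since the spots were then not bright enough on both arrays.

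Of the 148 named genes that were called, 103 kept the call without each array in turn, and 27 kept it in each of the 13 settings that called any gene and in which they were tested. Measured at both ages and among these 27 were ved, tbx16, cdx4, cyp24a1, cyp26a1, histh1l1 and phlda3 of the reversed genes. Of those that appeared, they included pim2, h1-10, krt99, prickle1a and mcl1b. Of those that faded, they included tmem144b, rundc3ab, rbpms2b and eno1a, and krt97 and sub1b were also among them. The levels of tmem144b at the later age lay near the floor, and what this did to its ratio was not tested. All settings drew on the same arrays, on which these genes had been chosen, so a kept call is no independent check.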

How the data were processed

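Total RNA was labelled from 1 µg per pool and hybridized to 2-colour Agilent oligonucleotide arrays, read with Feature Extraction 10.5.1.1, per the file headers. The deposited scanner tables hold median spot and background values in units of fluorescence intensity, not normalized, and processed signals, which are intensity values after the software's own background subtraction and dye normalization, per the file headers. In the deposited value table each spot has a log10 ratio, Cy5 to Cy3, which was identical to that in the scanner tables, and 18.6% to 20.8% of its values per array were 0.

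From the deposited intensities, log2 ratios were made after normexp background correction (offset 50) and within-array loess. Control spots and the 10 to 18 outlier spots per array had weight 0 and were then left out, and 0 spots were saturated. Spots of a probe were averaged, and a kept probe was well above background, in either channel, on both arrays of one age or of both. Symbols came from RefSeq accessions matched to a RefSeq gene table (16770 of 19210), and no sequence is shown because none is used here. Limma 3.58.1 under R 4.3.3 fitted a mean per age, tested two-sided with Benjamini-Hochberg adjustment over probes. Levels per channel were taken after Aquantile normalization between arrays.

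Named genes were the 8 largest rises and falls, the 6 largest in each direction of the classes reversed, appeared and faded, up to 3 called members per list, the 3 largest in each direction of genes measured at 1 age only, and badb, leaving out clone and locus names, and the results of some genes are not reported here. The members and the 48 lists, some of them holding genes that other lists also hold, were chosen with earlier results of these data known. Replicate numbers were not used to pair the samples, since the labels give no shared batch. Deviations of same-numbered arrays had a correlation of −0.04 over probes, which cannot show whether same-numbered pools shared a batch. The settings tried are given in the closing section. Tested on simulated data with 28320 probes, the fit recovered 0 of 67 differences of 1.25-fold, 39 of the 67 made 1.5-fold and 65 of the 66 made 2-fold, and 10 of its 114 calls were false. The simulated signals had no background, the background correction was skipped, and the noise was drawn independently for each probe. These counts therefore cover the loess and the fit, and not the background correction or errors shared between probes.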

Additional observations from a re-analysis of the deposited data

Results flagged for a closer look

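For the 2395 probes called, the ratio itself was tested between the ages. Listed here are the called differences of the 148 named genes, as ones that differed between 24 and 12 hpf. Of these 148, 103 kept the call without each array in turn. Values are the log2 ratio of morphant over wild type at 24 hpf minus that at 12 hpf, with limma adjusted p under 0.05, and no explanation was weighed.

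Among genes whose sign reversed, the difference was higher at 24 hpf in phlda3 (1.56), bbc3 (1.12), rspo1 (1.03), pik3r3a (1.00), gtpbp1l (0.99), ccng1 (0.90), hbae3 (0.80) and dnaja3a (0.72). Among genes whose sign reversed, the difference was lower at 24 hpf in cyp24a1 (−2.04), ved (−1.83), histh1l1 (−1.38), tbx16 (−1.37), cyp26a1 (−1.28), ccng2 (−1.09), sox10 (−1.06), hsp90aa1.2 (−1.06), diabloa (−1.05), cdx4 (−0.98) and gata2a (−0.78). Lower values of that kind were also found in he1.1 (−0.76), krt92 (−0.69), isl2a (−0.66), cebpb (−0.57), hif1al (−0.56) and cldn7b (−0.53).

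Among genes whose effect appeared at 24 hpf, the difference was higher at 24 hpf in s100a10a (2.29), rab12 (1.09), brf1a (1.05), mif (0.72), plgrkt (0.70), myl9a (0.69), slc24a5 (0.68), crygn2 (0.65) and ndufa2 (0.65). In the same group higher values were those of eif4g2a (0.58), hbae1.1 (0.52), aacs (0.51), hoxc4a (0.50), hsd17b7 (0.49), rps3 (0.46), crygm2d18 (0.43), cryba4 (0.42), eif4g2b (0.41), eef1akmt1 (0.41), psma6b (0.38) and tnnt3a (0.36). Among genes whose effect appeared at 24 hpf, the difference was lower at 24 hpf in pim2 (−2.24), h1-10 (−1.77), krt99 (−1.62), prickle1a (−1.56), mcl1b (−1.22), tent5ba (−1.21), irs2a (−1.09), gfi1aa (−1.09), klf11a (−1.08), gpia (−1.01) and fgf17 (−0.99). Lower values of that kind were also found in anxa4 (−0.93), myf5 (−0.90), cdx1a (−0.82), egr2b (−0.73), her5 (−0.73), he1.2 (−0.69), bnip3lb (−0.65), irx7 (−0.65), snai2 (−0.60) and hoxc3a (−0.59). More such decreases were seen in hnf1bb (−0.59), ndufa1 (−0.58), rpl22l1 (−0.56), has2 (−0.56), loxl5b (−0.56), col5a2a (−0.56), hoxd12a (−0.54), six3b (−0.53), hspb1 (−0.50), noto (−0.49), myod1 (−0.49) and vax1 (−0.49). Then came tbxta (−0.48), cebpa (−0.48), nkx2.7 (−0.47), prickle1b (−0.44) and dhrs3a (−0.37).

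Where the effect faded by 24 hpf, the difference was higher at 24 hpf in tmem144b (1.79), rundc3ab (1.58), rbpms2b (1.51), wee2 (1.5), birc5b (1.3), fosab (1.15), eno1a (1.00), vldlr (0.94), foxo3b (0.87), slc3a2b (0.79) and pfkfb3 (0.76). In the same group higher values were those of casp8 (0.57), onecut1 (0.56), cdkn1bb (0.56), rpl31 (0.51), irf9 (0.47), sc5d (0.46), actn3a (0.45), polr1b (0.44), atp5mc3a (0.42) and ifit8 (0.37). Also faded by 24 hpf, but with a lower value, were c6.2 (−1.29), h1m (−1.08), stx5a (−1.05), bsg (−1.04), lsm14b (−1.03), mat1a (−0.99), mef2ca (−0.84), ca2 (−0.77), insm1b (−0.64) and apoa4b.1 (−0.62). Lower values of that kind were also found in ambp (−0.61), tnnt3b (−0.61), cry1b (−0.55), ca15b (−0.51), tdrd1 (−0.49), cldni (−0.48), bmp4 (−0.47) and srsf5b (−0.44).

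With a larger effect of unchanged direction at 24 hpf, the difference was lower at 24 hpf in krt97 (−1.21), ddit4 (−1.14), ppp1r15a (−0.94), rx3 (−0.52) and p4ha2 (−0.49).

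With a smaller effect of unchanged direction at 24 hpf, the difference was higher at 24 hpf in mixl1 (1.09) and gdf3 (0.86). With a smaller effect of unchanged direction at 24 hpf, the difference was lower at 24 hpf in sub1b (−1.19), ptk7a (−0.72), fus (−0.71), uraha (−0.65) and cldng (−0.63).

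Among genes that passed against 0 at neither age, the difference was higher at 24 hpf in gnl3l (0.35).

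Genes bright enough at 24 hpf only set a measured ratio against one that was not bright enough at 12 hpf. Their values were higher in cryba1b (0.91), ghrh (0.87) and lim2.4 (0.76) and lower in pdha1b (−1.27), efemp2a (−0.86) and apoea (−0.65). Bright enough at 12 hpf only were fhdc3 (0.74), mc5rb (0.69), fam120c (0.63), 42sp43 (−1.03), ccna1 (−0.99) and camk1ga (−0.61), and whether their ratios changed by 24 hpf was not measured.

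Groups of 2 arrays are too small for a test of a single array against its group.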

How the results depend on the processing

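The number of called probes (2395) was within 1.5 times of it without background subtraction (1819), without a filter on dim probes (2394), with both channels well above background on all 4 arrays (2194), with robust moderation (2659) and with the replicate block (2430), which changed the call of 1 named gene, gnl3l. With a normexp offset of 16 it was 825 (275 higher, 550 lower, with 94 reversed, 329 appeared, 363 faded, 37 of unchanged direction and 2 called at neither age), and 40 listed genes were called higher and 79 lower. With the scanner software's processed signals, the deposited ratios or median centring limma called 0 probes and 0 listed genes in either direction and in each class, with 5960, 6050 and 865 probes at an unadjusted p under 0.05. With settings chosen after seeing the data, processed signals with both channels well above background gave 258 (83 higher, 175 lower, 61 reversed, 73 appeared, 110 faded, 14 of unchanged direction, 0 at neither age, 15 listed genes higher and 30 lower), and median centring with the same filter gave 55 (15 higher, 40 lower, 8 reversed, 24 appeared, 21 faded, 1 of unchanged direction, 1 at neither age, 5 listed genes higher and 17 lower). The cause of these losses was not tested.

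Without background subtraction 29 probes were called at neither age. Without each array in turn the count lay between 1192 and 2186, with 421 to 660 higher, 767 to 1526 lower, 111 to 183 reversed, 469 to 830 appeared, 416 to 951 faded, 53 to 126 of unchanged direction and 40 to 96 called at neither age, and listed genes numbered 43 to 68 higher and 106 to 147 lower. The share of lower calls was 63.2%, and 69.8% without 12 hpf replicate 2. Of the 148 named calls 133 were kept without background subtraction, 100 with the smaller offset, 143 with robust moderation and 142 when a gene's probes were averaged. The difference of efemp2a, not bright enough at 12 hpf, reversed to 0.27 with the processed signals and to 0.27 with the deposited ratios. The median difference of all genes lay between −0.04 and 0.01 in the settings run over probes.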

Other observations

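The following genes stood outside the lists and the naming rule and were chosen after their values were seen. Both zebrafish cyclooxygenase-2 genes, which make prostaglandins, were below wild type at 24 hpf and above it at 12 hpf. The ptgs2a ratio was −0.20 and −0.32 at 24 hpf, against 0.34 and 0.30 at 12 hpf (difference −0.59 ± 0.09 SE, limma adjusted p = 0.00751), and that of ptgs2b was −0.15 and −0.59 at 24 hpf, against 0.36 and 0.26 at 12 hpf (difference −0.68 ± 0.13, adjusted p = 0.0172, 1 of 2 probes called). The chemokine gene cxcl12a (−0.68), the thioredoxin-binding txnipa (−0.79), the ubiquitin ligase gene fbxo32 (−0.74) and the vertebral development gene vrtn (−0.80) reversed in the same direction. The side-chain cleavage gene of steroid synthesis, cyp11a1.1, appeared with −0.90 and −1.17 at 24 hpf, against 0.01 and 0.03 at 12 hpf (difference −1.06 ± 0.11, adjusted p = 0.00117, 1 of 2 probes called). The autophagy protease gene atg4a was also lower (−0.99).

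Other genes chosen in the same way were higher at 24 hpf than at 12 hpf. The mitochondrial outer membrane receptor gene tomm20a reversed, with ratios of 0.68 and 0.42 at 24 hpf, against −0.45 and −0.19 at 12 hpf (difference 0.87 ± 0.12, limma adjusted p = 0.00465). The genes pam16 (0.64, adjusted p = 0.00785) and dnajc19 (0.65, adjusted p = 0.0135) appeared. The ciliary microtubule genes tekt1 (0.50) and tekt4 (0.47) appeared as well, at ratios of 0.36 and 0.33 for tekt1 at 24 hpf, against −0.22 and −0.09 at 12 hpf. The egg coat protein gene zpax1 (−0.76) and the vessel regulator gene etsrp (−0.58) faded. The counts of the blood and vessel list above leave etsrp out.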
